A study of Cucumis melo with 6 samples.

Results

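The 150 most abundant transcripts of the wild-type melon leaf were followed into leaves of a double mutant of the CmLHP1 genes. Abundance was measured in CPM, the counted reads of a gene scaled to a library total of 1000000. The 150 genes with the highest mean CPM over the 3 wild-type libraries were taken from 28299 gene models. All 150 passed the filter on low counts and were among the 17988 genes tested. Because wild-type levels chose the genes, those levels are given as a description.

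Strand-specific poly(A) RNA sequencing was done on leaves of 2 genotypes, with 3 libraries each. The lhp1ab plants were of the CharMONO line and carried chemically (EMS) induced mutations in both genes, G1970A in Cmlhp1a and C1930T in Cmlhp1b, with positions counted in the genomic sequence from the ATG. The wild type (WT) was the monoecious inbred line CharMONO itself. Both belong to the Charantais type of Cucumis melo, subsp. melo var cantalupensis. Both were raised in pots in a glasshouse, at 27 °C by day and 21 °C by night in days of 16 h and nights of 8 h. The labels name 1 mutant allele per gene, and do not say whether other EMS mutations were crossed out or whether the plants came from 1 line. The replicates are called biological, without a statement that each was its own plant, so the p-values given here cover the variation between these libraries.

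In a green leaf, a few nuclear gene families fill much of the pool of polyadenylated RNA. Those usually include the small subunit of Rubisco, the chlorophyll a/b-binding proteins of the light-harvesting complexes and other parts of the photosynthetic and translation machinery. LHP1 is a chromodomain protein that binds histone H3 trimethylated at lysine 27, the mark that Polycomb proteins set at silent genes. Strongly transcribed genes usually carry other histone marks. Neither histone marks nor LHP1 binding at the members was looked at here. The identifiers come from an automated annotation and are not paired with gene names in these files, and 0 of them occurs in the gene table of another melon assembly. Genes are therefore described by their WT rank, position, exons and level, and neither leaf marker genes nor the CmLHP1 genes themselves were looked up. All coordinates are on release 4.0 of the melon genome.

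Library totals ranged from 15335390 to 17647188 counts in lhp1ab and from 20551374 to 22366054 in WT. The members alone held 3420138 to 4105928 counts per lhp1ab library and 4720915 to 5099743 per WT library. The lowest count of any member in any library was 1664, so counting error is small for every member. Some genes outside the list that are described below had fewer counts. Among lhp1ab libraries, replicate 1 stood apart: its own 150 most abundant genes took 29.1% of its counts, against 26.7% and 26.4% in replicates 2 and 3. The own 150 of each WT library took 22.8 to 23.1%. Over the genotypes this gave 27.4% ± 1.44 in lhp1ab and 23.0% ± 0.159 in WT (SD, n = 3 each).

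At the limit of the list, levels ran on without a gap. The last 3 members had a mean of 637, 636 and 631 CPM in WT, and the first 3 genes outside had 629, 626 and 620 CPM. In lhp1ab the same members had 657, 274 and 327 CPM, and the same genes outside had 400, 46.9 and 432 CPM. The second gene outside, a single-exon model on chromosome 5 from 910462 to 911904, thus missed the list by a few CPM and ranked 4702 in lhp1ab.

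The members took almost the same share of the library in both genotypes, 23.2% ± 1.30 in lhp1ab and 23.0% ± 0.157 in WT (SD, n = 3 each). The 3 lhp1ab libraries had 24.7%, 22.6% and 22.3% of their counts in the members, and the 3 WT libraries had 23.0%, 23.1% and 22.8%. The lhp1ab values lay on both sides of the WT values. The difference of 0.225 percentage points was smaller than the spread between lhp1ab libraries, and it was -0.522 without lhp1ab replicate 1. Wilson 95% intervals of these shares reached at most 0.0208 percentage points to either side, and like all such intervals cover counting error only.

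Within this even total, the members' counts were concentrated in fewer genes in the mutant. Because WT levels set the list, members had a lower limit in WT that they did not have in lhp1ab. How much of the concentration comes from the rule was not tested. The 50 members of highest WT rank took 17.1%, 15.4% and 15.2% of the lhp1ab libraries, against 14.2% ± 0.180 of the WT libraries (SD, n = 3), where the highest was 14.4%. The other 100 members took 7.56%, 7.21% and 7.09% of the lhp1ab libraries, against 8.75%, 8.76% and 8.80% of the WT libraries. Neither pair of groups overlapped. Of the first 50, the genes of rank 1, 13 and 14 were picked because they were among the 5 largest gains of all members. Together these 3 took 4.31% in lhp1ab and 2.14% in WT. Because they were picked for their gain, leaving them out must lower the lhp1ab share relative to WT. The other 47 took 12.5%, 11.3% and 11.03% of the lhp1ab libraries, against 12.1%, 12.2% and 11.9% of the WT libraries, with overlap. The members of rank 2 to 10 took 4.30% ± 0.311 in lhp1ab and 4.59% ± 0.126 in WT (SD, n = 3 each). In lhp1ab, 20 members held 50% of the members' counts, whereas 33 did so in WT. Summed over members, 51 genes gained 50535 CPM in lhp1ab and the other 99 had a summed change of -48282 CPM. The 5 largest gains, of the members of rank 1, 14, 13, 74 and 92, made up 57.1% of all gains. The 5 largest losses, of rank 8, 7, 4, 24 and 25, made up 18.8% of all losses.

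**Figure D1:**
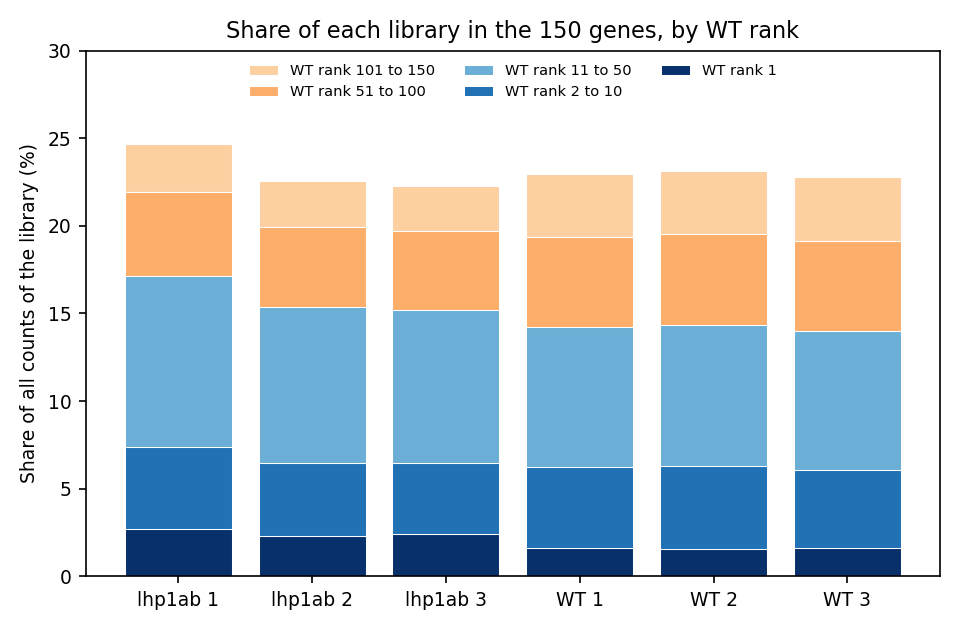
Share of all counts of each library (vertical axis, %) held by the 150 genes, in 3 lhp1ab libraries on the left and 3 WT libraries on the right, stacked by WT rank. The totals lie between 22.3% and 24.7% in lhp1ab and between 22.8% and 23.1% in WT, and the 3 lower segments together, ranks 1 to 50, are larger in every lhp1ab library than in any WT library.

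The most abundant transcript was the same in all libraries and rose further in the mutant. This 3-exon gene on chromosome 10 (1673144 to 1674528, minus strand) had 26945, 23065 and 23951 CPM in lhp1ab, against 16290, 15565 and 15822 CPM in WT. Every lhp1ab library lay above every WT library. The change was 1.61-fold (log2 0.69, SE 0.089, edgeR adjusted p = 3.61e-05), and it did not pass the test for more than 1.5-fold (edgeR adjusted p = 0.11).

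The next places included neighbouring genes near the start of chromosome 8. The members of rank 3 (1126903 to 1128291, plus strand) and rank 4 (1124451 to 1125615, minus strand) are single-exon genes that point away from each other. The member of rank 21 covers the second of them from the other strand (1123209 to 1125897). The gene of rank 3 had 8694, 7587 and 7442 CPM in lhp1ab, against 7814, 8216 and 7386 CPM in WT, and the genotypes overlapped (log2 0.07, SE 0.089, edgeR adjusted p = 0.482). Its neighbour of rank 4 had 6012, 5031 and 4886 CPM in lhp1ab, against 7211, 7372 and 7093 CPM in WT. That gene was lower in lhp1ab without overlap (log2 fold change -0.39, SE 0.095, edgeR adjusted p = 0.00318). Whether the changes of these neighbours differ from each other was not tested.

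Among the other members of the first 10 ranks, the genes of rank 5, 6 and 10 rose and those of rank 7 and 8 fell. The largest of these rises was at rank 10, a 2-exon gene on chromosome 2 from 25348203 to 25349722, with 4789 ± 324 CPM in lhp1ab and 3235 ± 71.6 CPM in WT (SD, n = 3 each; edgeR adjusted p = 2.52e-05). Rank 5, on chromosome 1 (4041354 to 4043022), had 5027 ± 451 CPM in lhp1ab and 4239 ± 167 CPM in WT. Rank 6, on chromosome 8 (3214541 to 3216743), had 5244 ± 301 CPM in lhp1ab and 4129 ± 69.7 CPM in WT (SD, n = 3 each). The genes of rank 7 and 8, with 4 exons each, lie on chromosome 5 (8457834 to 8460822) and chromosome 7 (26332840 to 26335862). Rank 7 had 1784 ± 7.56 CPM in lhp1ab and 3830 ± 188 CPM in WT. Rank 8 had 1323 ± 17.6 CPM in lhp1ab and 3393 ± 137 CPM in WT (SD, n = 3 each). These were 2.07-fold and 2.47-fold falls in edgeR's fit, and their mutant libraries lay within a few percent of each other. The genes of rank 2 and 9 had overlapping values, with log2 changes of -0.02 (SE 0.079) and 0.05 (SE 0.078).

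Of the 150 members, 125 were called by edgeR's quasi-likelihood test at an adjusted p of 0.05, where 75.5% of all 17988 tested genes were called. Among the members, 40 (26.7%) were higher in lhp1ab, against a background of 36.9% of tested genes, and 85 (56.7%) were lower, against 38.5%. The remaining 25 members were not called. Changes beyond 1.5-fold were called upward in 10 members, against a background of 20.9%, and downward in 60 members, against 19.3%. All 125 called members had lhp1ab and WT libraries that did not overlap in CPM. Without overlap, 40 members were higher (background 35.5%) and 89 lower (background 42.1%) in lhp1ab. The median log2 fold change was -0.34 for the members and -0.02 for all tested genes, and the median SE of a member was 0.072.

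The direction of this split followed the genotype that set the list. When the 150 genes with the highest mean CPM in lhp1ab were taken instead, 97 were higher and 28 lower, with a median log2 fold change of 0.52. With both genotypes weighted equally, 70 were higher and 55 lower. The excess of lower members is thus not read as a fall of abundant genes as a class. With the genes picked on 1 WT library and lhp1ab set against the other 2, 36 to 38 were higher and 84 to 86 lower. The other WT libraries deviated from the choosing one by a median log2 of -0.0090 to 0.0043 over those genes. These lists were still drawn on WT level, and any 2 WT libraries shared 141 to 145 of their 150 most abundant genes. The similar split therefore cannot separate a change in the mutant from the choice by WT level.

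Direction also went with rank inside the list. Of the 50 members of highest WT rank, 22 were higher and 17 lower, with a median log2 fold change of 0.09. At ranks 51 to 100 there were 8 higher and 33 lower (median -0.50), and at ranks 101 to 150 there were 10 higher and 35 lower (median -0.77). Among the 150 genes just beyond the list, 20 were higher and 118 lower (median -0.97), and among those of rank 301 to 1000 the median was -0.58. These are again genes ordered by WT level. Spearman's rho between WT rank and log2 fold change was -0.27 across the 150 genes, which share their libraries and are not independent. With ranks taken from 1 WT library and changes from the other 2, the median was 0.04 to 0.10 at ranks 1 to 50 and -0.73 to -0.59 at ranks 51 to 150. Those ranks also come from WT level, so these medians do not separate the trend from the rule.

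**Figure D2:**
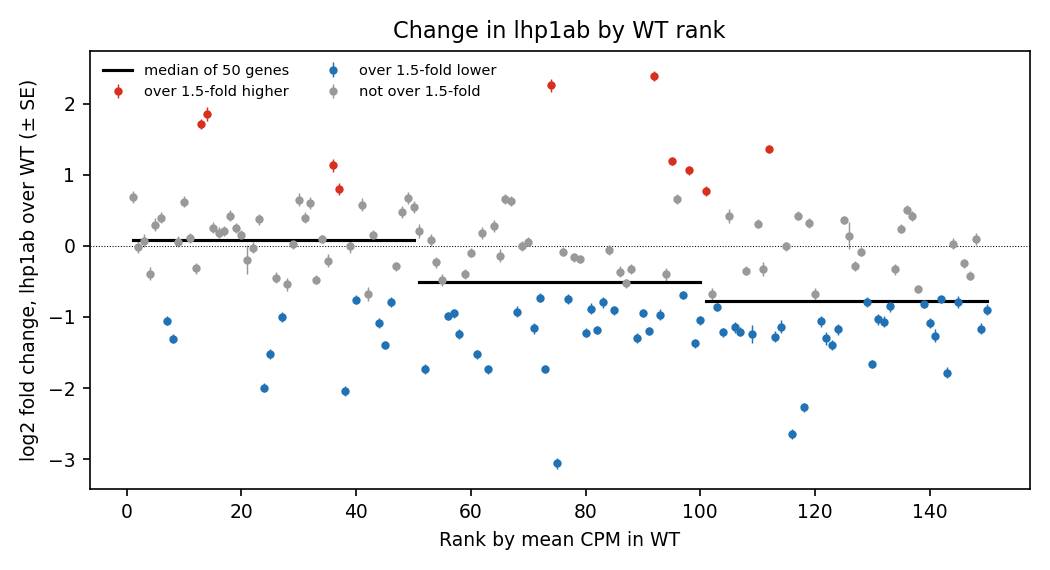
log2 fold change of lhp1ab over WT (vertical axis, with SE) against rank by mean CPM in WT for the 150 genes, coloured by the test for a change beyond 1.5-fold. Horizontal bars are medians of 50 genes, at 0.09, -0.50 and -0.77 from the highest to the lowest ranks.

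At least 2-fold rises were called in 8 members, where 16.7% of tested genes passed the same limits, and at least 4-fold rises in 2 members (background 6.87%). The largest belonged to maker-Chr10-exonerate_est2genome-gene-66.20, of WT rank 92, with 6 exons on chromosome 10 (minus strand, 6638779 to 6641345). It had 4636, 4352 and 4329 CPM in lhp1ab, against 870.2, 888 and 869.8 CPM in WT. The lowest mutant library was above 4 times the highest WT library, and the gene took rank 12 in lhp1ab. Its log2 fold change was 2.39 (SE 0.070, edgeR adjusted p = 3.09e-10), or 5.25-fold.

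The next was maker-Chr1-exonerate_est2genome-gene-36.3, of WT rank 74, with 2 exons and 798 exon bases on chromosome 1 (plus strand, 3612701 to 3613799). It had 4866, 4694 and 4549 CPM in lhp1ab, against 1014, 914 and 1131 CPM in WT, without overlap. It took rank 10 in lhp1ab and rose 4.78-fold (log2 2.26, SE 0.089, edgeR adjusted p = 2.58e-09).

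A pair of already prominent genes moved to places 2 and 3 of the mutant leaf. The single-exon gene of WT rank 14, on chromosome 4 (plus strand, 14294453 to 14295495), had 10861, 9024 and 8758 CPM in lhp1ab, against 2677, 2682 and 2879 CPM in WT. It rose 3.61-fold (log2 1.85, SE 0.101, edgeR adjusted p = 3.28e-08). The 6-exon gene of WT rank 13, on chromosome 3 (minus strand, 22972354 to 22976386), had 8584, 8884 and 9079 CPM in lhp1ab, against 2758, 2903 and 2711 CPM in WT. Its rise was 3.28-fold (log2 1.72, SE 0.067, edgeR adjusted p = 2.61e-09). Neither gene had overlapping genotypes.

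The other 4 of the 8 largest rises were between 2.09-fold and 2.56-fold. They comprised WT rank 112 on chromosome 10 (1182787 to 1185559, 7 exons), rank 95 on chromosome 8 (4727342 to 4732752, 16 exons), rank 36 on chromosome 4 (32930658 to 32931721, 2 exons) and rank 98 on chromosome 8 (947368 to 951503, 12 exons). The highest in lhp1ab was rank 36, with 3749 ± 324 CPM in lhp1ab and 1778 ± 173 CPM in WT (SD, n = 3 each). Rank 112 had 1920 ± 29.4 CPM in lhp1ab and 776 ± 19.2 CPM in WT (SD, n = 3 each).

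Among the members 39 were called at least 2-fold lower (background 14.4%) and 4 at least 4-fold lower (background 5.08%), in a list drawn on WT levels. None was 16-fold lower. The largest fall was that of maker-Chr11-exonerate_est2genome-gene-231.66, of WT rank 75, with 3 exons on chromosome 11 (minus strand, 23151655 to 23153231). It had 123, 117 and 109 CPM in lhp1ab, against 1007, 959.6 and 1053 CPM in WT. It was 8.34-fold lower (log2 -3.06, SE 0.078, edgeR adjusted p = 1.35e-10) and ranked 1544 in lhp1ab.

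The second was maker-Chr1-exonerate_est2genome-gene-159.26, of WT rank 116, with 4 exons on chromosome 1 (minus strand, 15927926 to 15929948). Its libraries held 122, 112 and 111 CPM in lhp1ab, against 768, 749 and 729.8 CPM in WT. This was a 6.28-fold fall (log2 -2.65, SE 0.069, edgeR adjusted p = 1.54e-10). At rank 1571 in lhp1ab it was the member that sank furthest.

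The third, of WT rank 118, has 4 exons on chromosome 8 from 4539470 to 4542827 and fell 4.83-fold. It had 152, 149 and 142 CPM in lhp1ab, against 738, 752 and 729.5 CPM in WT. The fourth, of WT rank 38, is a single-exon gene on chromosome 1 from 4649353 to 4650137 that fell 4.13-fold, with 383 ± 22.3 CPM in lhp1ab and 1637 ± 13.5 CPM in WT (SD, n = 3 each). The fifth, of WT rank 24, has 2 exons on chromosome 2 from 2452538 to 2454443 and fell 3.99-fold, with 515 ± 12.6 CPM in lhp1ab and 2127 ± 111 CPM in WT (SD, n = 3 each). None of the 3 had overlapping genotypes.

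The remaining 3 of the 8 largest falls were 3.33-fold to 3.45-fold. WT rank 143, on chromosome 7 from 23721858 to 23724172, had 183 ± 13.1 CPM in lhp1ab and 655 ± 40.4 CPM in WT. WT rank 63, on chromosome 4 from 28166530 to 28171588, had 336 ± 12.3 CPM in lhp1ab and 1163 ± 74.6 CPM in WT. WT rank 52, on chromosome 11 from 26428504 to 26432600, had 398 ± 6.42 CPM in lhp1ab and 1373 ± 117 CPM in WT (SD, n = 3 each). In whole leaves, less RNA per cell and fewer cells that make it cannot be told apart, for these falls as for the rises.

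**Figure D3:**
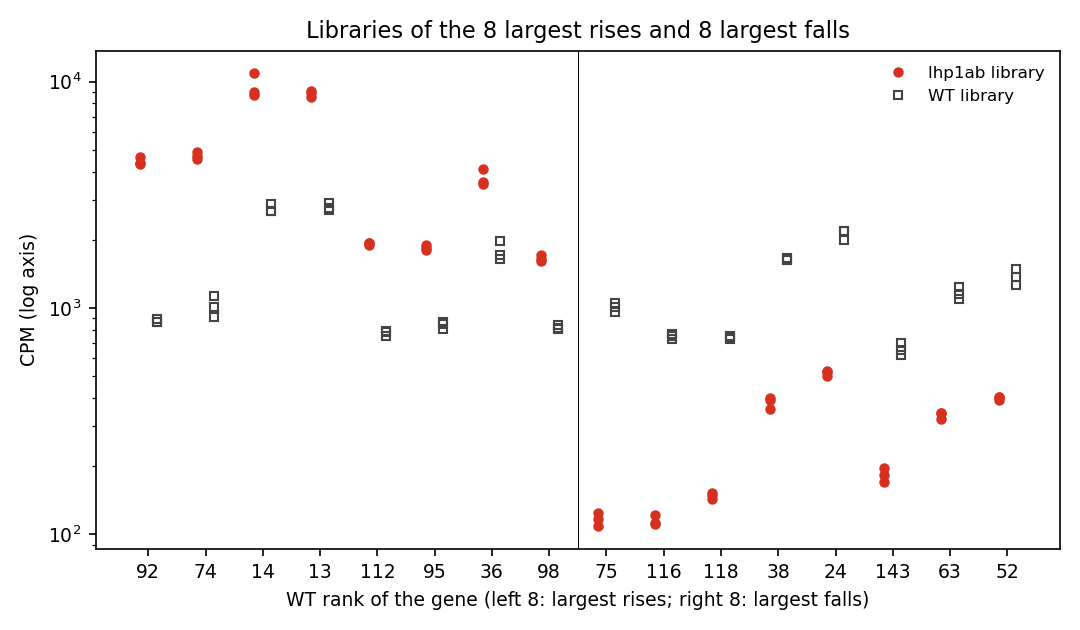
CPM (log axis) in each library of the 8 members with the largest rises and the 8 with the largest falls, named by WT rank, with filled red circles for lhp1ab and open squares for WT. In all 16 genes the 3 lhp1ab libraries lie apart from the 3 WT libraries.

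The 3 members with the smallest fitted change had nearly equal means. The 5-exon gene of WT rank 69, on chromosome 6 from 775027 to 777272, had 1021 ± 69.3 CPM in lhp1ab and 1057 ± 11.4 CPM in WT. The 12-exon gene of rank 115, on chromosome 12 from 23338297 to 23341280, had 725 ± 18.5 CPM in lhp1ab and 755 ± 18.3 CPM in WT. The 4-exon gene of rank 39, on chromosome 6 from 4874787 to 4876039, had 1550 ± 61.5 CPM in lhp1ab and 1616 ± 200.1 CPM in WT (SD, n = 3 each). Their SE of 0.060 to 0.090 on the log2 scale still allows changes many times larger than the fitted ones, and the sign of each estimate turned with the scaling.

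Ranks moved far more between genotypes than between replicates. Any 2 WT libraries shared 141 to 145 of their 150 most abundant genes, any 2 lhp1ab libraries shared 140 to 145, and an lhp1ab and a WT library shared 90 to 93. By mean CPM, 93 of the 150 members (62%) stayed among the 150 most abundant genes of lhp1ab and 57 left. The single mutant libraries had 93, 92 and 91 members inside. In all 3 of them at once 89 members were inside, and 55 were outside in all 3, so few members sat at the limit. Of those that stayed, 40 were called higher and 28 lower, and all 57 that left were called lower. A member can leave only by sinking in lhp1ab, so the direction among those that left is nearly fixed by the sorting. By rank, 34 members climbed and 114 sank. The list holds the highest WT ranks, so the rule fixes the WT median rank and leaves more room to sink than to climb. These rank changes are therefore given as a description. The median rank was 106.5 in lhp1ab and 75.5 in WT, 25 members ranked beyond 300 in lhp1ab, and 3 ranked beyond 1000, those of WT rank 75, 116 and 118. The lowest place of a member in any WT library was 171.

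How firmly a gene held its place went with its WT rank. Of the members of rank 1 to 50, 47 stayed in the 150 of lhp1ab, of those of rank 51 to 100 there were 29, and of those of rank 101 to 150 there were 17. Members near the limit need a smaller change to leave, so this order comes in part from the rule. Within the first 10 places, 7 genes were also in the first 10 of lhp1ab. The places of rank 7, 8 and 9 were lost, and those genes ranked 43, 61 and 17 in lhp1ab.

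**Figure D4:**
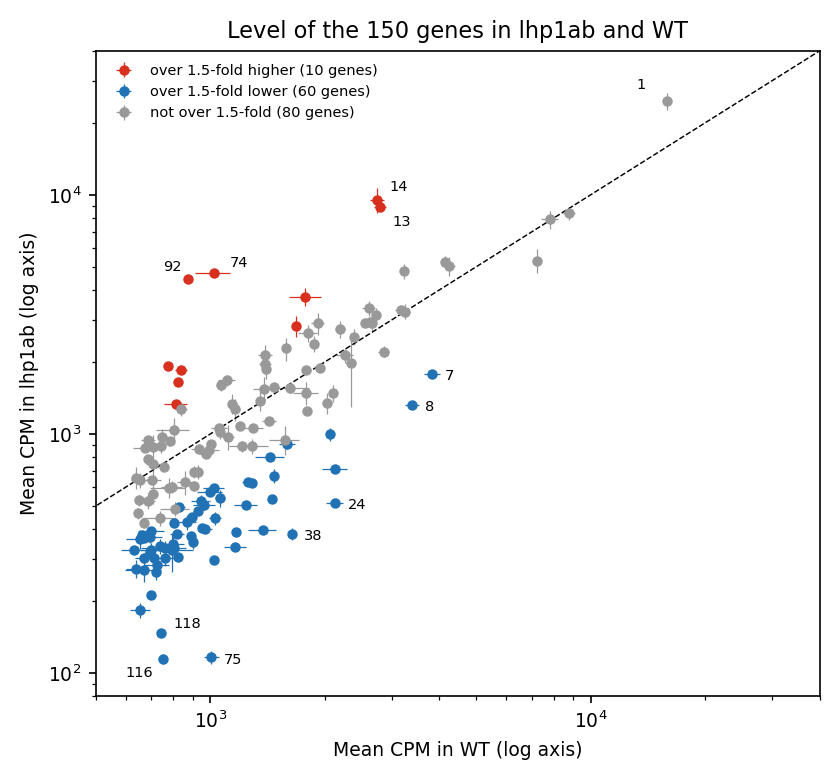
Mean CPM in lhp1ab against mean CPM in WT (log axes, SD over 3 libraries as bars) for the 150 genes, with the line of equal levels dashed and some genes marked by their WT rank. Red points are the 10 genes over 1.5-fold higher and blue points the 60 over 1.5-fold lower in lhp1ab.

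By median, the members had shorter spans and fewer exons than tested genes. Against all gene models they had more exons and a nearly equal span. Their median was 4 exons and 1409 exon bases, against 5 exons and 1601 exon bases for all tested genes. The span from first to last exon had a median of 2315 bases, against 3332 for all tested genes, and 41.2% of the summed span was intron, against 59.0%. Over all 28299 gene models, tested or not, the median was 3 exons, 1161 exon bases and a span of 2332 bases. Models of 2 to 4 exons made up 48% of the members and 33.7% of tested genes. Single-exon models numbered 16 (10.7%, Wilson 95% interval 6.67 to 16.6%), against 15.5% of tested genes. The largest exon number of a member was 19, so no member had 30 or more. These are descriptions without a test, and CPM favours long genes, which gather more reads at a given transcript number.

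Members of higher WT rank had fewer exons. Those of WT rank 1 to 50 had a median of 3 exons, 1321 exon bases and a span of 1879 bases, and 18% had a single exon. Those of rank 51 to 150 had a median of 5 exons, 1535 exon bases and a span of 2549 bases, and 7% had a single exon. Spearman's rho between WT rank and exon number was 0.29 across the 150 genes, and that between WT rank and exon length was 0.05. Ranked by WT CPM per kb of exon, 104 of the 150 members were still among the first 150, and 25 of the 46 that were not had over 2000 exon bases. The first 4 places per kb were held by the genes of CPM rank 1, 2, 4 and 3, and the fifth by that of rank 39, which has only 488 exon bases.

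Calls in the mutant are given by exon number beside the shares of tested genes of the same class. Those tested genes cover all levels, whereas the members were drawn on WT level. A gap between them is thus not read as an effect of exon number. Among the 16 single-exon members, 1 was over 1.5-fold higher and 3 lower, where 26.8% of single-exon tested genes were higher and 19.4% lower. Among the 29 members with 2 exons, 2 were over 1.5-fold higher and 9 lower (background 26.8% and 20.7%). With 3 or 4 exons, 1 of 43 was higher and 21 were lower (background 23.5% and 20.4%). With 5 to 8 exons, 3 of 36 were higher and 16 lower (background 19.2% and 19.5%), and with 9 or more, 3 of 26 were higher and 11 lower (background 13.2% and 17.2%). From the fewest to the most exons, 14, 20, 22, 19 and 18 members stayed in the 150 of lhp1ab. The median log2 fold change was 0.03 for both 1 and 2 exons, and -0.68, -0.60 and -0.42 in the 3 classes of more exons. Among all tested genes these 5 medians lay between -0.09 and 0.08. Exon number and WT rank, which go together to some extent, were not separated. Spearman's rho across the 150 genes was -0.10 between exon number and log2 fold change and -0.14 between exon length and log2 fold change.

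Members lay on all 12 chromosomes and in equal number, 75 each, on both strands. Their number ranged from 5 on chromosome 9 to 20 on chromosome 8, or from 0.384% of tested genes on chromosome 9 to 1.24% on chromosome 2. In the share of library counts, the members of chromosome 8 took 3.90% in lhp1ab and 4.21% in WT, and those of chromosome 10 took 3.91% in lhp1ab and 2.59% in WT. Chromosome 10 carries the genes of rank 1 and 92. Of its 10 members 7 were called higher and 3 lower, where 37.9% of its tested genes were higher and 37.3% lower. On chromosome 9 there were 0 of 5 higher and 4 lower (36.3% and 36.8% of its tested genes), and on chromosome 11 there were 0 of 9 higher and 6 lower (36.4% and 37.4%). Numbers per chromosome are small, and no difference between chromosomes was tested. The terminal 20% of each chromosome at either end held 69.3% of the members, 67.6% of all tested genes and 56.9% of all gene models.

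Few members shared their place with another gene. Overlap with a gene model on the same strand concerned 2 members (1.33%), against 3.91% of tested genes, and overlap on the opposite strand 13 members (8.67%), against 13.5%. Both same-strand cases, WT rank 105 and 108 on chromosome 2, share exon bases with their partner, and the authors counted such reads for each gene. Only 3 members stood head to head within 1000 bases of a neighbour (2.00%, against 3.83% of tested genes). The median distance to the next gene upstream was 3461 bases for members and 3941 bases for tested genes.

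Immediate neighbours on the list were rare, 9 members in 4 runs. On chromosome 4 the gene of rank 110 (14286703 to 14288842) lies next to that of rank 14 on the same strand. Rank 110 had 937 ± 33.1 CPM in lhp1ab and 784 ± 20.4 CPM in WT (SD, n = 3 each), a 1.24-fold rise (edgeR adjusted p = 0.00105) beside the 3.61-fold rise of its neighbour. On chromosome 12 the genes of rank 84 (23334093 to 23337802) and 115 follow each other on the minus strand. They have 11 and 12 exons and 1521 and 1542 exon bases. Rank 84 had 868 ± 32.8 CPM in lhp1ab and 936 ± 44.0 CPM in WT (SD, n = 3 each; log2 -0.06, edgeR adjusted p = 0.463), and rank 115 was likewise not called. Whether their sequences are alike was not looked up, and counts of near-identical copies are uncertain under the authors' counting.

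The other 2 runs each hold a pair of genes on opposite strands that share exon bases, and the run on chromosome 8 also holds rank 3, which shares none. These pairs were singled out after their values were seen. On chromosome 8 the genes of rank 4 and 21 share 931 exon bases, and on chromosome 3 the genes of rank 22 (4366294 to 4368292, minus strand) and 126 (4366436 to 4368470, plus strand) share 1371, which is 90.6% of the exon bases of rank 22. The gene of rank 21 had 2163, 2540 and 1216 CPM in lhp1ab, against 2425, 2322 and 2295 CPM in WT. The gene of rank 126 had 817, 954 and 485 CPM in lhp1ab, against 728, 721 and 673 CPM in WT. Both were highest in lhp1ab replicate 2 and lowest in lhp1ab replicate 3. Their coefficients of variation in lhp1ab, 34.6% and 32.1%, were the largest of all members, and neither was called (edgeR adjusted p = 0.403 and 0.513). Without lhp1ab replicate 3, rank 126 was called higher (log2 0.38, edgeR adjusted p = 0.00104) and rank 21 had a log2 fold change of 0.06, against -0.20 with all libraries.

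Measured against their partner, these 2 genes gave nearly the same percentage in each library. Rank 21 had 36.0%, 50.5% and 24.9% of the counts of rank 4 in lhp1ab, and 33.6%, 31.5% and 32.4% in WT. Rank 126 had 35.4%, 46.7% and 23.6% of the counts of rank 22 in lhp1ab, and 31.9%, 30.5% and 31.6% in WT. The loci lie on different chromosomes. Another 3 pairs of a member and a less abundant gene on the opposite strand, with partners of WT rank 194, 212 and 466, followed the same order of lhp1ab libraries. All 5 pairs in which the lesser gene exceeded 20% of the other in WT were highest in lhp1ab replicate 2 and lowest in replicate 3. Of the 11 pairs with shared exon bases, 9 were highest in replicate 2 and 9 lowest in replicate 3. The part of library preparation or read assignment in these values was not tested. The largest fall, of rank 75, also has a partner on the opposite strand, with 198 shared exon bases. These are 14.3% of the exon bases of rank 75 and 64.7% of those of the partner. That partner held 15.1%, 17.7% and 10.0% of the counts of rank 75 in lhp1ab, and 12.4%, 11.6% and 12.3% in WT. It was itself lower in lhp1ab, with a log2 fold change of -2.80 (SE 0.176, edgeR adjusted p = 1.01e-07). Whether its fall is separate from that of rank 75 was not tested.

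**Figure D5:**
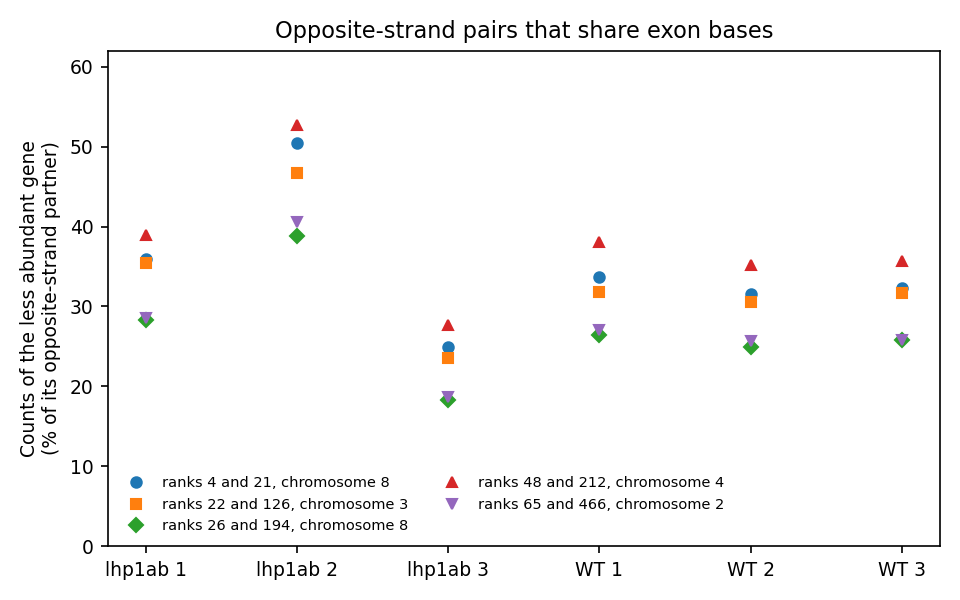
Counts of the less abundant gene as a percentage of its partner on the opposite strand (vertical axis) in each library, for the 5 pairs with shared exon bases and over 20% in WT. In all 5 pairs lhp1ab replicate 2 is highest and lhp1ab replicate 3 lowest, over 18.3% to 52.8%, and WT libraries lie between 25.0% and 38.1%.

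Apart from these genes, the members were measured with little spread. The coefficient of variation between libraries had a median of 5.64% in lhp1ab and 3.497% in WT, against 8.44% and 6.25% over all tested genes in the same genotypes. It was larger in lhp1ab in 104 of the 150 members. In lhp1ab it exceeded 20% in 2 members, those of rank 21 and 126, and in WT it reached at most 13.3%, in the member of rank 114.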

How the data were processed

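Each library has 1 deposited table of raw counts of reads per gene. The headers of the files name featureCounts 1.6.4 as the authors' counting tool, applied to exons with strand setting 2 (reverse-stranded) and a minimum mapping quality of 30. A read over more than 1 gene went to each of them, and the option to count multi-mapping reads was on. The mapping quality limit of 30 applied to those reads too, and how many passed it was not tested. The submitters' processing notes also list Trimmomatic 0.38, STAR, R 3.5.1 and DESeq2.

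CPM were computed as counts over the library total. Changes were tested on all genes with edgeR 4.0.16 (R 4.3.3): TMM, default filter on low counts by genotype, two-sided quasi-likelihood F-test without covariates, Benjamini-Hochberg adjustment over 17988 genes, and glmTreat against 1.5-fold. The SE is the log2 fold change over the square root of F. Replicates differed beyond sampling noise (chi-square per degree of freedom 2.15 to 11.5 over tested genes, 26.3 to 123 over members), so each library counted as 1.

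Alternatives were other normalizations, no filter, DESeq2 1.42.0, limma-voom (limma 3.58.1), a replicate block, leaving out libraries or overlapping genes, and other choices of members. Named were the 10 members of highest WT rank, the 8 largest rises and falls, the 3 smallest changes, 3 genes on either side of the limit and adjacent members on 1 strand. Ranks 21, 22, 25, 105, 108, 114 and 126 were named after their values were seen. Members and tests were chosen with earlier results of these data known.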

Additional observations from a re-analysis of the deposited data

How the results depend on the processing

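Over the other normalizations, tests, filters and left-out libraries, 37 to 42 members were higher and 81 to 88 lower. Over 1.5-fold, 9 to 12 were higher and 51 to 62 lower, with the 51 from DESeq2. The counts follow the choice of members. Of 100 members 50 were lower and 34 over 1.5-fold lower (median log2 fold change -0.19). Of 200 members 93 were over 1.5-fold lower (median -0.60). Of 150 genes by CPM per kb, 5 were over 1.5-fold higher and 84 lower (median -0.81). Chosen after seeing the data, the 150 genes by lhp1ab CPM gave 97 higher and 28 lower, 59 and 10 over 1.5-fold, and a median of 0.52. The 150 by both genotypes gave 70 and 55, 38 and 33 over 1.5-fold, and a median of 0.10.

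The difference in library share was 1.17 percentage points with 100 members, -0.757 with 200 members and -0.589 by CPM per kb. With a library left out it lay between -0.522 (without lhp1ab replicate 1) and 0.668. Members next to another numbered 3 of 100, 15 of 200 and 14 by CPM per kb. By CPM per kb the median exon length was 1037 bases and 20.7% had a single exon. The cause of these shifts was not tested.

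Of 41 named members, rank 126 gained a call without lhp1ab replicate 3, none lost one, and 9 uncalled ones changed sign. With RLE size factors, TMM without the members and DESeq2, the log2 fold changes were 0.014, 9.75e-05 and 0.014 for rank 2, 0.022, 0.0095 and 0.022 for rank 115, and 0.022, 0.0085 and 0.022 for rank 39. Rank 22 had 0.0025 with RLE size factors and with DESeq2. Rank 69 had -0.050 with library totals, -0.0097 without the filter, -0.0011 with the replicate block and -0.0011 with limma-voom. With a library left out, the values ranged from -0.074 to 0.037 for rank 2, from -0.010 to 0.13 for rank 3, from -0.015 to 0.11 for rank 9, from -0.062 to 0.048 for rank 69, from -0.031 to 0.022 for rank 115, from -0.076 to 0.093 for rank 39, from -0.39 to 0.061 for rank 21, from -0.094 to 0.029 for rank 22 and from -0.037 to 0.38 for rank 126.

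The genotypes share replicate numbers and nothing else that pairs libraries. With the replicate block, 37 members were higher and 84 lower. The correlation of deviations between libraries of the same number was 0.00060, 0.12 and -0.18, and other numbers reached 0.27. Depth does not limit the members, whose lowest count was 1664.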
